A study of Homo sapiens with 2 samples.

Results

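Hippo pathway genes and 3 targets of its coactivator YAP were examined in nascent RNA from BJ cells, a line of human skin fibroblasts. The 10 genes were taken by name: the coactivator genes YAP1 and WWTR1, the DNA-binding partners TEAD1 and TEAD3, the inhibitory kinase genes LATS1 and LATS2, the upstream inhibitor NF2, and the targets AMOTL2, CCN1 and CCN2. All 10 had a value among the 12353 genes in the table, matched from Ensembl identifiers to current symbols. Genes below some minimum are absent from it, so the median gene and the shares of all genes refer to the genes present. The study holds 2 libraries, which the labels call biological replicates, of a single group of untreated BJ cells grown with 10% serum. Isolated nuclei extended their transcripts for 5 min at 30 °C with a brominated nucleotide, so that the captured RNA comes from polymerases already engaged on a gene (GRO-seq). Values are FPKM, fragments per kilobase scaled to library size, and the libraries are called a and b.

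In the Hippo pathway, junction and cytoskeletal proteins such as the NF2 product merlin activate the LATS kinases. LATS phosphorylates YAP and its paralogue TAZ (the WWTR1 product), which are then held in the cytoplasm or degraded. In cells with low pathway activity, as in spread fibroblasts on stiff substrates, YAP and TAZ enter the nucleus, bind TEAD factors and activate genes such as CCN1, CCN2 and AMOTL2. YAP control is largely a matter of protein phosphorylation and location, which nascent RNA does not measure. Several pathway inhibitors, LATS2, NF2 and AMOTL2 among them, are also known as YAP targets, so the division into regulators and targets is not sharp.

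The 3 targets stood well above the 7 regulators in both libraries. Their lowest value in either library was 101, for AMOTL2, and the highest regulator value was 43.0, for TEAD3, a gap of 2.36-fold. All 3 targets reached a mean FPKM of 100, a level that 2.43% of all genes reached, and none of the regulators did. Because the genes were chosen by name with results of these libraries known, and the libraries form 1 group, no test was made. An exact sign-flip test over 2 libraries could not go below p = 0.5. In bulk RNA, strong transcription in some cells and moderate transcription in all cells cannot be told apart.

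**Figure D1:**
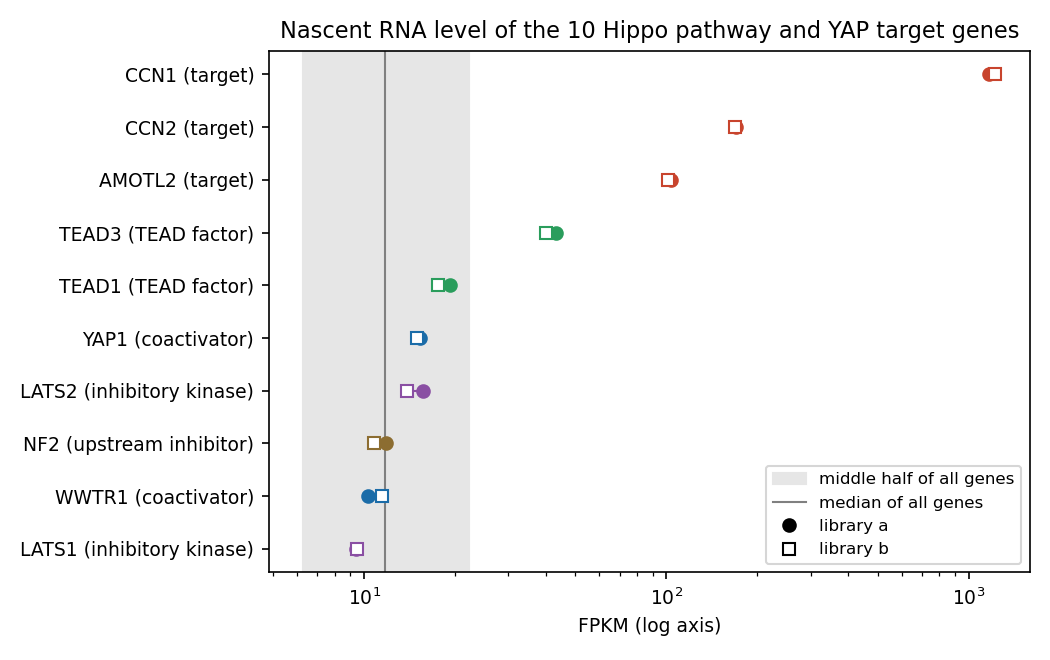
FPKM on a log axis for the 10 genes, with a filled circle for library a and an open square for library b, coloured by role; the grey band spans the lower to the upper quartile of all genes (6.29 to 22.2) and the line marks their median (11.7). The targets CCN1, CCN2 and AMOTL2 lie above 100 in both libraries, TEAD3 lies near 41.5, and the other 6 regulators lie inside the grey band.

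CCN1 encodes a secreted matricellular protein that binds integrins and is also a serum-induced primary response gene. It stood at 1164 in a and 1224 in b (mean 1194 ± 42.1, SD, n = 2, as for all SDs here), 102 times the median gene and rank 16 of all genes. CCN2, formerly CTGF, encodes a related matricellular protein of wound repair and fibrosis. It stood at 170 in a and 168 in b (169 ± 1.57), 14.5 times the median gene and rank 140. AMOTL2, a motin that binds YAP and tethers it at junctions and actin, stood at 103 in a and 101 in b (102 ± 1.54), 8.75 times the median gene and rank 290. The 3 targets therefore kept 1 order in both libraries without overlap. CCN1 exceeded CCN2 by 2.82 ± 0.0643 on the log2 scale of FPKM + 0.1, or 7.04-fold, and CCN2 exceeded AMOTL2 by 0.73 ± 0.00835, or 1.65-fold.

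The sequence before the start of 3 of the genes is shown because TEAD factors, through which YAP acts, bind the letters CATTCC, or GGAATG when read on the other strand. The sequences are RefSeq promoter entries on GRCh38, from 250 bases to 1 base before an annotated start, in the direction of the gene. Capitals mark each CATTCC or GGAATG match and, in CCN2, a TATAAA match. The CCN2 stretch lies at chr6:131951373-131951622 on the minus strand, the AMOTL2 stretch at chr3:134374448-134374697 on the minus strand, and the YAP1 stretch at chr11:102110197-102110446 on the plus strand.
CCN2: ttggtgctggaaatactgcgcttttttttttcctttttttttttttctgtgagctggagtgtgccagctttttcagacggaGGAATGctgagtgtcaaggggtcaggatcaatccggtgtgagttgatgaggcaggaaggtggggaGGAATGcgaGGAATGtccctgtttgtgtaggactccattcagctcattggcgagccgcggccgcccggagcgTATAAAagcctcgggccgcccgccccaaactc
AMOTL2: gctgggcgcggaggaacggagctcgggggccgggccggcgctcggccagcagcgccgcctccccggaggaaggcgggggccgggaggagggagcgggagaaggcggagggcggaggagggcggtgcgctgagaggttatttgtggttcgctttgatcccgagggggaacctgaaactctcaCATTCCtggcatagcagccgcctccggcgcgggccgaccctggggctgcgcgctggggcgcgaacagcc
YAP1: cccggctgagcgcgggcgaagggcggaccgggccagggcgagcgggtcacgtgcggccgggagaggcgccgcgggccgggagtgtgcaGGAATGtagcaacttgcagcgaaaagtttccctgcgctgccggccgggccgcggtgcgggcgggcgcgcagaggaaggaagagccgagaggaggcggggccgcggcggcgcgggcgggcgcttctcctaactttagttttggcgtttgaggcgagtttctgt

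CCN2 held 3 TEAD matches, all as GGAATG, beginning 169, 104 and 95 bases before the start, and a TATAAA beginning 32 bases before it. At least 1 TEAD match was present in 11.9% of the 35116 promoter entries and at least 3 in 0.0826%, or 29 entries. AMOTL2 had a CATTCC beginning 69 bases before 1 of its 2 annotated starts, and its other start had none. YAP1 had a GGAATG beginning 162 bases before its start. Of the 10 genes, 8 had entries, with 12 starts in all, and 3 of those 12 starts held a match. CCN1 and TEAD1 had no entry. The AP-1 letters TGANTCA were found before 1 of the 12 starts, in LATS1, against 6.57% of all entries. TATAAA was found before 2 of the 12, in CCN2 and LATS1, against 10.7%. That of LATS1 began 132 bases before 1 of its 2 starts, farther than the 32 bases of CCN2. The CArG box of serum response factor was found before none of the 12 starts, against 1.16% of all entries. Both strands were searched, no motif overlapped another in the stretches shown, and a match is a description of letters, not of bound factor.

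Of the regulators, the coactivators were transcribed near the level of the median gene in the table. YAP1 stood at 15.3 in a and 14.9 in b (15.1 ± 0.247), 1.29 times the median gene and above 60.7% of genes. WWTR1, which encodes TAZ, stood at 10.3 in a and 11.5 in b (10.9 ± 0.834), 0.928 times the median gene. YAP1 was higher than WWTR1 in both libraries, by a log2 ratio of 0.57 in a and 0.38 in b (0.47 ± 0.133), a 1.39-fold difference.

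The TEAD genes differed more between themselves than the coactivator genes did. TEAD3 stood at 43.0 in a and 40.0 in b (41.5 ± 2.12), 3.54 times the median gene and above 90.4% of genes. TEAD1 stood at 19.2 in a and 17.6 in b (18.4 ± 1.17), 1.57 times the median gene. TEAD3 exceeded TEAD1 2.25-fold, with a log2 ratio of TEAD1 to TEAD3 of -1.16 in a and -1.18 in b. The other family genes were lower, with TEAD4 at 12.0 and 10.7 and TEAD2 at 6.90 and 6.41 in libraries a and b. In both libraries the order was TEAD3, TEAD1, TEAD4, TEAD2. Next to TEAD3 on the chromosome lies the ribosomal protein gene RPL10A, at 375 in a and 378 in b, and its part in the TEAD3 value was not tested.

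The inhibitory kinases and NF2 were also near the level of the median gene. LATS2 stood at 15.6 in a and 13.8 in b (14.7 ± 1.27), and its paralogue LATS1 at 9.38 and 9.50 (9.44 ± 0.0849), the lowest of the 10 genes. LATS2 was the higher in both libraries, by a log2 ratio of 0.73 in a and 0.54 in b (0.63 ± 0.136), or 1.55-fold. NF2 stood at 11.8 in a and 10.8 in b (11.3 ± 0.721), 0.963 times the median gene. Among the 7 regulators, 4 lay above the median gene and 3 below it, against 50.0% of all genes above. Their highest mean was 4.39 times their lowest, whereas the targets spanned 11.7-fold.

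In the full order CCN1, CCN2, AMOTL2, TEAD3, TEAD1, YAP1, LATS2, NF2, WWTR1, LATS1, neighbours were compared in both libraries. For 7 of the 9 neighbouring pairs the ranges over the libraries did not overlap. The exceptions were YAP1 against LATS2, with a log2 ratio of -0.04 in a and 0.11 in b, and NF2 against WWTR1, with 0.20 and -0.09. These pairs changed order between the libraries and cannot be ranked. The narrowest separated pair was WWTR1 over LATS1, a 1.15-fold difference.

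Set against each other as groups, the median target exceeded the median regulator by 3.53 ± 0.0849 on the log2 scale, with 3.47 in a and 3.59 in b. This is 11.6-fold, from medians taken within each library. The middle target was CCN2 in both libraries. The middle regulator was YAP1 in a (15.3) and LATS2 in b (13.8), so the SD also holds this change of gene. By mean FPKM over the libraries, the medians were 169 for the targets and 14.7 for the regulators. Against the 4 coactivator and TEAD genes alone the difference was 3.34 ± 0.0439 (10.1-fold), and against LATS1, LATS2 and NF2 it was 3.90 ± 0.0782 (14.9-fold). With AMOTL2, itself a YAP-binding inhibitor, counted as a regulator the first difference became 4.91. It came to 3.30 with LATS2 counted as a target, and to 4.16 with list means in place of medians. The gene length behind each FPKM was not given in the sources used here. CCN1 and CCN2 are short genes and YAP1 and TEAD1 long ones, and the part of length in these differences was not tested.

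The wider pathway was covered by 5 lists that together name 68 genes, of which 64 had a value. Their median was 11.9, close to the 11.7 of all genes, and 33 of the 64 lay above the median gene, against 50.0% of all genes. The 64 include the 7 regulators and AMOTL2, so they are not a set apart from the members. AMOTL2 was the only 1 of the 64 at a mean FPKM of 100 or more, a level that 2.43% of all genes reached.

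Among TEAD cofactors, VGLL4, a TEAD-binding repressor that competes with YAP, stood at 27.7 in a and 28.6 in b, above YAP1 and WWTR1. VGLL3 stood at 12.1 and 11.8, and VGLL1 and VGLL2 had no value. The list of coactivators, TEADs and VGLLs had a median of 13.5 over 8 of 10 genes, from TEAD3 down to TEAD2.

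The core kinases and their adaptors formed the lowest list. All 17 had values, with a median of 8.24, and 3 of 17 lay above the median gene. These were TAOK2 (30.5 in library a, 27.8 in library b), a kinase that acts above the MST kinases, MAP4K4 (21.1 and 17.3), which can phosphorylate LATS directly, and LATS2. The MST kinase genes STK3 (8.68 and 6.97) and STK4 (8.29 and 8.19), the scaffold gene SAV1 (6.95 and 8.25) and the LATS cofactor genes MOB1A (11.6 and 11.6) and MOB1B (5.91 and 5.69) all lay below it. TNIK was lowest at 3.53 and 3.31.

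Upstream junction and membrane genes spread widest of the 5 lists, with a median of 13.4 over 17 of 19 and 10 above the median gene. Below AMOTL2 came FRMD6, an upstream FERM-domain activator, at 68.1 in a and 73.5 in b. RASSF1, a scaffold of the MST kinases, stood at 65.9 and 53.6, the large cadherin gene FAT1 at 51.7 and 49.6, and AJUBA, a LIM protein that restrains LATS, at 42.4 and 44.0. Of the other motins AMOTL1 stood at 15.1 and 13.0 and AMOT had no value, as did WWC1. DCHS1, an atypical cadherin that pairs with FAT4, stood at 2.81 and 3.15, and WWC3 was lowest at 2.59 and 2.65.

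The phosphatase complex STRIPAK, which removes activating phosphates from the MST kinases, had all 11 listed genes measured with a median of 12.2, from the catalytic subunit gene PPP2CA (24.5 in library a, 22.4 in library b) down to STRIP2 (1.85 and 1.98). Of these, 6 lay above the median gene. Genes for retention and degradation of YAP had the highest median of the 5 lists, 27.3, and 9 of 11 lay above the median gene. CSNK1D, a casein kinase that marks YAP for degradation after LATS has acted, led at 82.3 in a and 81.3 in b. The 14-3-3 genes that retain phosphorylated YAP ranged from YWHAZ (59.9 and 53.2) to SFN (8.24 and 7.84), the lowest of the list. The ubiquitin ligase genes BTRC (9.98 and 7.44) and FBXW11 (12.4 and 12.6) stood near the median gene. The 14-3-3 and casein kinase proteins serve many pathways besides Hippo.

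**Figure D2:**
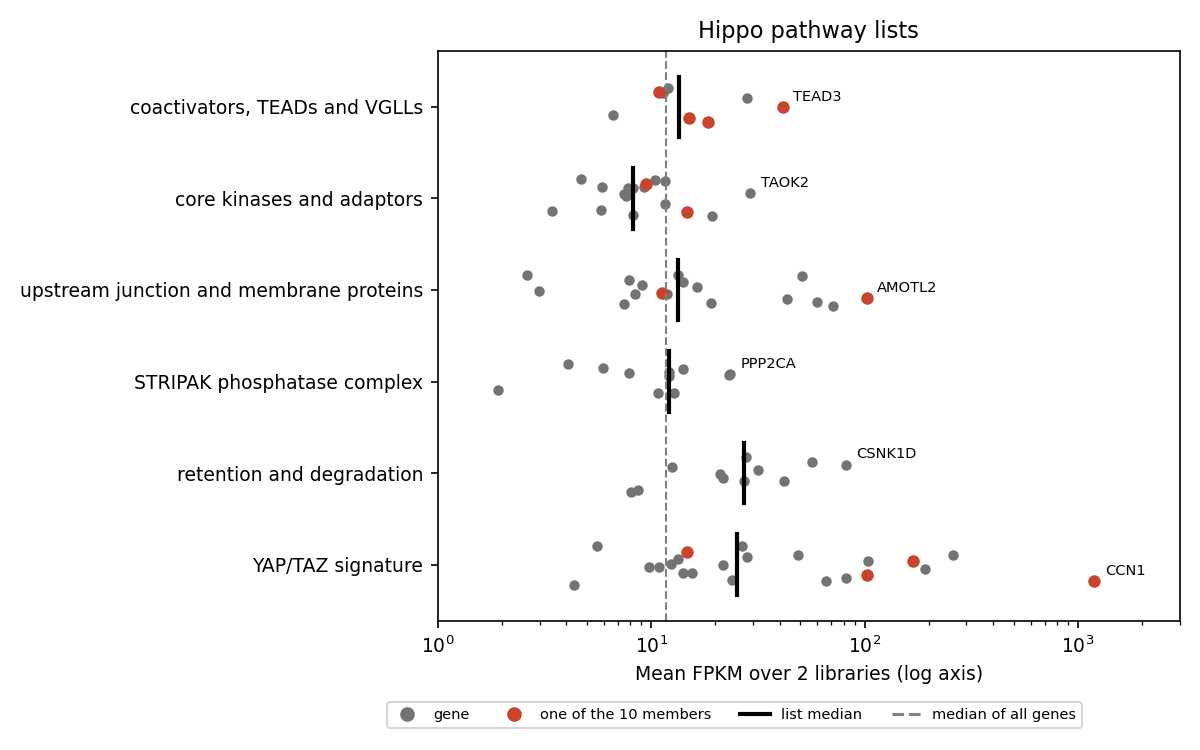
Mean FPKM over the 2 libraries on a log axis for the measured genes of 5 pathway lists and the YAP/TAZ signature, with red points for the 10 members, black bars for list medians and a dashed line for the median of all genes (11.7). The core kinases and adaptors have the lowest median (8.24), retention and degradation genes the highest (27.3), and CCN1 lies apart at 1194.

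Targets were widened to a published signature of 22 genes that follow YAP and TAZ activity in tumours, which includes AMOTL2, LATS2, CCN1 and CCN2. All 22 had values, with a median of 25.2, which is 2.16-fold over that of all genes. A raised median was not particular to the signature. For the 10 fibroblast markers described below it was 39.5, or 3.38-fold, and 3 of the 10 reached a mean FPKM of 100. Of the 22, 18 lay above the median gene, against 50.0% of all genes. The count was 17 in library b alone, where FJX1 stood at 11.4. Without the 4 shared members the median was 22.8, and 14 of 18 lay above. A mean FPKM of 100 was reached by 6 of the 22, against 2.43% of all genes. Beside CCN1, CCN2 and AMOTL2 these were F3 (270 in library a, 249 in library b), which encodes tissue factor, CRIM1 (205 and 180), which encodes a membrane protein that binds bone morphogenetic proteins, and the stress response gene GADD45A (102 and 106).

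The signature genes did not share 1 level. Their means spanned 275-fold, from CCN1 down to TGFB2, a TGF-beta ligand gene, at 4.01 in a and 4.67 in b. The receptor kinase gene AXL stood at 79.6 and 84.3 and the membrane repair gene MYOF at 67.3 and 63.9. ANKRD1, a widely used reporter of YAP activity, stood at 9.69 and 9.92, below the median gene in both libraries, as did FOXF2 (10.9 and 10.9), RBMS3 (5.33 and 5.85) and TGFB2. CCN1 was thus 122 times ANKRD1 in mean FPKM. TEAD matches were found before 8 of 18 starts of the 16 signature genes with an entry, against 11.9% of all entries. They belonged to CCN2, AXL, AMOTL2, NUAK2, PTPN14, FOXF2, ANKRD1 and TGFB2, which lay on both sides of the median gene. ANKRD1, with 2 matches, stood low, and F3, with none in the searched stretch, stood high.

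**Figure D3:**
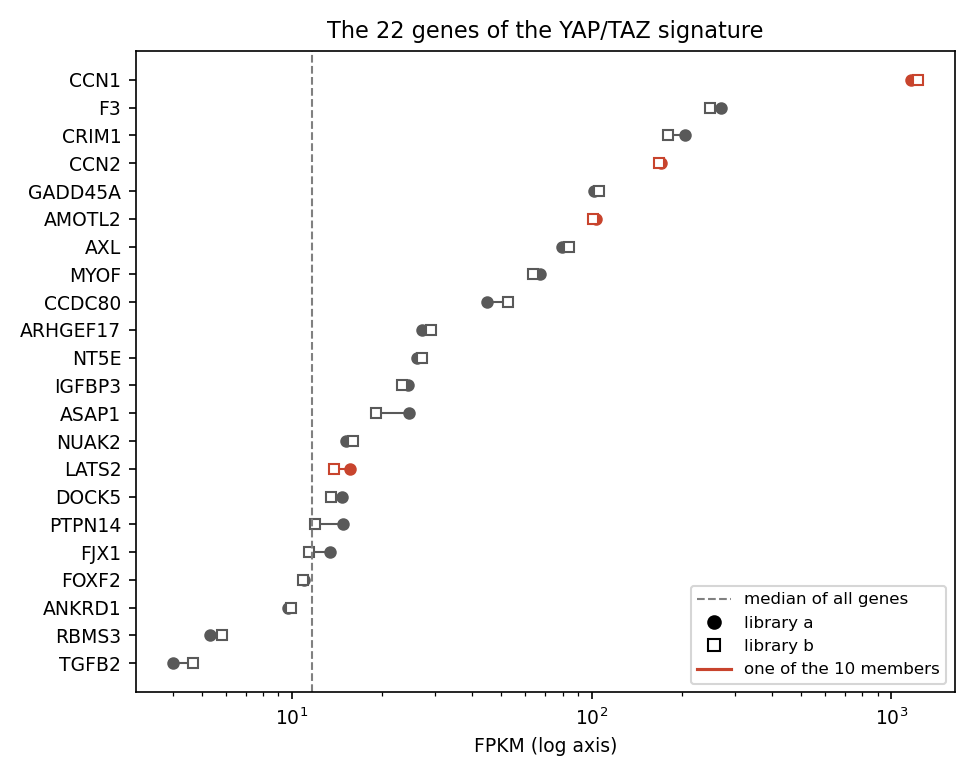
FPKM on a log axis of the 22 signature genes, with a filled circle for library a, an open square for library b, red for members, and a dashed line at the median of all genes (11.7). CCN1 is highest at 1164 and 1224, and FOXF2, ANKRD1, RBMS3 and TGFB2 lie below the line in both libraries.

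Few genes differed between the libraries by more than 1.5-fold, 2.15% of all genes. None of the 10 members did, and none of the 64 measured genes of the wider lists, among them the 7 regulators and AMOTL2. With so small a share over all genes, these counts say little about the members or the lists. The median member differed by a factor of 1.06, compared with 1.10 for all genes, and the widest difference was that of LATS2, 1.13-fold higher in library a. CCN1, WWTR1 and LATS1 were higher in library b and the other 7 in library a, while 46.4% of all genes were higher in library b. The median log2 difference of all genes was -0.02.

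**Figure D4:**
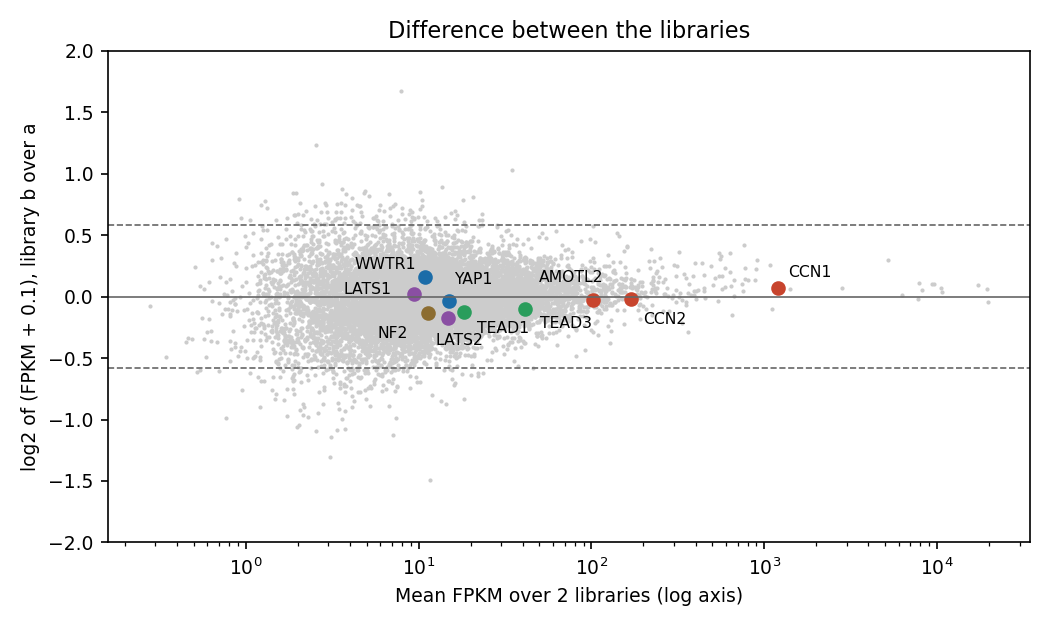
Log2 ratio of FPKM + 0.1, library b over library a, against mean FPKM on a log axis, with all genes in grey, the 10 members coloured by role and dashed lines at 1.5-fold. Every member lies between the dashed lines, from LATS2 at -0.17 to WWTR1 at 0.16.

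By position, the targets stood above the genes beside them on the chromosome in both libraries. CCN2 lies between ENPP1 (1.49 in library a, 1.52 in library b) and MOXD1 (3.51 and 2.28). CCN1 lies between DDAH1 (48.7 and 50.4) and ZNHIT6 (10.5 and 9.12), and AMOTL2 between RYK (7.79 and 4.53) and ANAPC13 (46.8 and 56.3). YAP1 stood above its neighbour CFAP300 (2.99 and 2.22), and its other neighbour BIRC3 had no value. WWTR1 was close to COMMD2 (12.8 and 12.7), with TM4SF4 on its other side without a value. TEAD1 lies between PARVA (26.9 and 26.0) and RASSF10, which had none. LATS2, between XPO4 (6.44 and 6.95) and SAP18 (62.5 and 50.8), was the lower beside SAP18. LATS1 lies between KATNA1 (19.2 and 19.6) and NUP43 (7.36 and 8.38), and NF2 between NIPSNAP1 (7.14 and 7.78) and CABP7 (2.81 and 1.95). The other neighbour of TEAD3, TULP1, stood at 13.8 and 16.7. Of the 10 genes, 8 overlap another annotated gene in RefSeq, such as CCN2-AS1 at CCN2, WWTR1-AS1 at WWTR1, TEAD1-AS1 at TEAD1 and MIR6827 at AMOTL2. Whether counting used strand was not given in the sources used here, so reads from such partners cannot be told apart from the member's own. CCN1 and TEAD3 overlap none.

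The genes nearest to 3 members by distance between their log2 values in the 2 libraries were also listed. For CCN1 they were the matricellular gene THBS1 (1144 in library a, 1067 in library b) and the actin gene ACTG1 (1378 and 1442). For CCN2 they were ATP5PD (171 and 169) and TUBA1B (167 and 175), and for YAP1 they were BRIX1 (15.3 and 14.9) and STAU1 (15.2 and 14.9). With 2 libraries of 1 condition, this likeness is one of level only.

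The cell label was checked against markers. All 10 fibroblast markers had values, from DCN at 7.34 to COL1A1 at 649 in mean FPKM. Of the 10, 8 lay above the median gene, against 50.0% of all genes, and DCN and PDGFRA lay below it. None of 5 endothelial and none of 5 leukocyte markers had a value, and of 5 epithelial markers CDH1 (1.49) and CLDN4 (2.99) did.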

How the data were processed

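Nascent RNA was measured by GRO-seq in 2 libraries of untreated BJ cells. The deposited FPKM values were made by the authors, with Bowtie2, HTSeq and hg19 named without versions per the submitters' processing notes. The gene length, read total, annotation and strand setting behind them were not given in the sources used here. No value was 0 and the lowest was 0.27, so genes below some minimum are absent from the table and depth is unknown; no counting interval is given. The columns are named a and b and could not be tied to a replicate number.

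Identifiers were paired with symbols through an Ensembl name table (12202 of 12353 matched). Promoter entries and gene order came from RefSeq on GRCh38. Mean and SD were taken over the libraries, and ratios from log2(FPKM + 0.1) within each library. No filter was applied, and no p-value was computed. The members, lists and motifs were chosen with earlier results of these data known. A gene of the lists as first drawn up is not reported here and was left out of the list counts. Named genes are the members, measured genes of the lists (the highest and lowest of each always), the 2 nearest in level to CCN1, CCN2 and YAP1, and chromosomal neighbours. Alternatives were a pseudocount of 1, leaving out each library, list means, quantile normalization, a minimum mean FPKM of 1, other assignments of LATS2 and AMOTL2, and nuclear protein-coding genes as background. Python 3.11.15, pandas 2.3.3 and numpy 2.4.6 were used.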

Additional observations from a re-analysis of the deposited data

How the results depend on the processing

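Of 47 alternatives, at least 19 could not move the result. With 2 libraries, each of 14 contrasts and ratios with a library left out is a single-library value. Such a value must lie within 1 SD of the mean. In 5 cases a minimum mean FPKM of 1 removed no member. These 19 say nothing about stability. Of the other 28, 20 stayed within 1 SD over the libraries (or, for counts, within 1.5-fold), 8 moved and none reversed a direction. Some of those 20 were fixed in advance too. A pseudocount of 1 only shrinks differences, so it could not raise the count of 0 members past 1.5-fold. The signature count without the members had to be 14, because the shared members all lie above the median gene. List means raised the difference of targets over regulators to 4.16, over coactivators and TEADs to 3.86, and over LATS and NF2 to 4.55 on the log2 scale. Targets over regulators came to 3.30 with LATS2 counted as a target and 4.91 with AMOTL2 counted as a regulator. A pseudocount of 1 gave 3.27 over coactivators and TEADs, 3.80 over LATS and NF2, and -1.13 for TEAD1 over TEAD3. The signature count was 17 in library b alone and 18 in library a alone. The count of 14 signature genes without the members was an alternative chosen after seeing the data. No paired analysis was possible because the libraries form a single group. With 2 libraries an SD is itself very uncertain, and the unknown depth leaves the counting error of the lower genes unknown.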

Other observations

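Of the other CCN genes, which encode related matricellular proteins, CCN3 stood at 6.94 in a and 7.70 in b and CCN6 at 4.17 and 4.33, and CCN4 and CCN5 had no value. The family thus ran from rank 16 for CCN1 to below the median gene for CCN3 and CCN6.

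Across all measured genes with a promoter entry, levels were set beside the number of TEAD matches in the 250 bases before the start, taken as the largest over a gene's starts. The median FPKM was 11.9 for 8612 genes without a match, 12.2 for 1233 genes with 1, 11.9 for 84 genes with 2 and 3.82 for 7 genes with 3 or more, CCN2 among them. The medians for 0, 1 and 2 matches lay close together. This is a description across genes, which are not independent replicates.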
